A study of Saccharomyces cerevisiae with 8 samples.

Results

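The 10 genes described here encode cell wall mannoproteins of budding yeast: the 4 TIR genes (TIR1, TIR2, TIR3 and TIR4), DAN1, DAN4, TIP1, CWP1, CWP2 and SED1. They were taken by systematic identifier from a table of 11993 features, of which 5976 matched protein-coding genes, and were in part selected on measured values, namely the lower densities of TIP1 and CWP1 without Upf1. All 10 passed the filter on low values. Because changes without Upf1 entered the choice, the comparison of upf1 with WT cells is given for these genes as values with no test.

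Mannoproteins form the outer layer of the yeast wall. They are secreted, rich in serine and threonine, heavily mannosylated, and most are first held in the membrane by a glycosylphosphatidylinositol (GPI) anchor and then linked to wall glucan. Cwp1 and Cwp2 are major wall proteins of cells grown in air, while the Tir and Dan proteins take their place when oxygen is absent. TIR1, TIR2 and TIP1 are also known as genes induced by cold shock. Upf1, an RNA helicase, is the core factor of nonsense-mediated decay (NMD), the pathway that degrades mRNAs on which translation ends too early.

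Strand-specific total RNA sequencing covered 4 groups with 2 replicates each, called biological in the series design: upf1 with CHX, upf1 with DMSO, WT with CHX and WT with DMSO. All groups were strain BY4741, a haploid laboratory strain with the genotype MATa his3Δ1 leu2Δ0 met15Δ0 ura3Δ0, and the upf1 cells carried the allele upf1*::kanMX4 as well. Cells were grown in YPD at 30 °C to an OD600 of 0.5 and exposed for 15 min to cycloheximide (CHX, 100 µg/ml), which blocks translation elongation, or to an equal volume of its solvent DMSO. The series asked how cytoplasmic non-coding RNAs respond to blocked translation and to loss of Upf1.

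Values are the authors' normalized read densities, that is reads per base of a feature times 1 factor per library. These factors held the median of 76 snoRNAs level, to within -0.011 and 0.001 on the log2 scale, while the library median of 5817 protein-coding genes ran between -1.07 and 1.03. A density is therefore a level against snoRNAs, and each change is also given on mRNA-rescaled libraries, in which the median protein-coding gene is level. Depth, counted as the reads recovered over the features of the table, was 9.09 M to 25.6 M per library (M for 1e+06). Of these reads 0.106% to 0.287% fell on the 10 genes. In bulk RNA, fewer cells of a type and less RNA per cell cannot be told apart. NAM7, the gene for Upf1, had densities of 0.0373, 0.035, 0.0216 and 0.0239 in the upf1 libraries, against 1.48, 1.74, 0.533 and 0.588 in the WT libraries. The 7 markers of a cells summed to densities of 23.2 to 79.6 and the 4 markers of alpha cells to 0.0948 to 0.996, as the MATa genotype states.

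The genes lie on 7 chromosomes of build R64, 3 pairs as neighbours, and each reading frame is 1 exon. TIR4 (YOR009W, chromosome XV, 344335 to 345798, plus strand) and TIR2 (YOR010C, 346195 to 346950, minus strand) face each other with 396 bases between their frames. DAN1 (YJR150C, chromosome X, 708811 to 709707) and DAN4 (YJR151C, 712255 to 715740) both read from the minus strand, 2547 bases apart. CWP2 (YKL096W-A, chromosome XI, 259253 to 259531) and CWP1 (YKL096W, 261132 to 261851) both lie on the plus strand, 1600 bases apart. The others stand apart from these pairs: TIP1 (YBR067C, chromosome II, 372103 to 372735, minus), SED1 (YDR077W, chromosome IV, 600793 to 601809, plus), TIR1 (YER011W, chromosome V, 175248 to 176012, plus) and TIR3 (YIL011W, chromosome IX, 333727 to 334536, plus).

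TIR1 and TIR2 are the most alike pair in coding sequence, and their openings are shown because the change without Upf1 differed in direction between them. Capitals mark the 18 of 120 bases at which they differ, as read from the RefSeq genome of build R64, 5′ to 3′ from the start codon (TIR1 at chrV:175248-175367, plus strand, and TIR2 at chrXV:346831-346950, minus strand).
TIR1: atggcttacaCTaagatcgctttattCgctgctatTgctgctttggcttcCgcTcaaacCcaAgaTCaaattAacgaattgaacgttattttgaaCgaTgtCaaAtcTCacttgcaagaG
TIR2: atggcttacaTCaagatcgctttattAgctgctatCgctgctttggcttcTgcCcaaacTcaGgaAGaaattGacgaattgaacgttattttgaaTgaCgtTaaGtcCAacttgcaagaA
Over 704 aligned coding bases the pair shared 82.8%, and the longest identical run was 40 bases. Across all pairs of the 10 genes the identity over the aligned part was 67.8% to 82.8%. No coding window of 50 bases in these genes occurred elsewhere in the genome. Repeats inside a single gene covered 13% of such windows in TIR1, 20.2% in TIR4, 19.9% in DAN4 and 4.75% in SED1, and the other 6 genes had none.

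The anaerobic activator Upc2 acts on TIR and DAN genes through a motif called AR1, searched here as TCGTTTAG or TCGTTCAG on either strand in the 600 bases before each reading frame. The motif was found before 4 of the 10 genes, and before 220 of 6018 protein-coding genes with a full window (3.66%). The matches are shown because they fall in DAN1, DAN4 and TIR4 but also in CWP1, whose level moved the other way from TIR4 and DAN4 without Upf1. The motif is in capitals, and each line reads 5′ to 3′ on the minus strand of build R64, from chrXV:344101-344130 for TIR4, chrX:710101-710130 and chrX:709869-709898 for DAN1, chrX:715918-715947 for DAN4 and chrXI:260761-260790 for CWP1.
TIR4: ttagaaatgcaTCGTTTAGgaaccctgttc
DAN1, far: tattttatctgTCGTTTAGcacatatggcc
DAN1, near: ctaacaaaacaTCGTTCAGgaacagagaat
DAN4: taagatctccaTCGTTCAGgaactgtaaaa
CWP1: aagggccctttTCGTTCAGggagctgtggc
The matches stood 216 bases before the frame in TIR4, 405 and 173 in DAN1, 189 in DAN4 and 353 in CWP1, on the gene's own strand in DAN1 and DAN4 and on the opposite strand in TIR4 and CWP1. A match describes these letters only.

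The length behind each density was recovered from the values and bears on 2 members. Features exceeded the reading frame by a median of 188 bases over 5647 genes with 1 coding exon, with a 95th percentile of 641 and a 99th percentile of 1344. The TIR2 feature was 1900 bases for a frame of 756, an excess of 1144, and the DAN4 feature was 5425 bases for a frame of 3486, an excess of 1939. Reads from outside the frame thus enter both values, and on which side these features extend is not given in the sources used here. TIR4 and DAN1 had features of exactly the frame, 1464 and 897 bases, and the other 6 exceeded theirs by 129 to 383 bases.

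In every group the aerobic wall genes stood far above the TIR and DAN genes. SED1, a structural wall protein abundant under stress and in stationary phase, together with CWP2 supplied 79.4% to 82.9% of the summed density of the 10 genes in each library, while the 6 TIR and DAN genes supplied 2.19% to 3.29%. The sum itself was 39.5 and 37 for upf1 cells given CHX, 14 and 16.8 for upf1 cells given DMSO, 49.7 and 48 in WT with CHX, and 19.1 and 20.1 in WT with DMSO. On the deposited scale it was lower in the upf1 libraries than in the WT libraries of the same treatment, with no overlap. TIP1 and CWP1, chosen for lower values without Upf1, are part of this sum, and SED1 and CWP2 make up most of it. Nothing is therefore read from this comparison.

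The order at the top differed by treatment. SED1 was first and CWP2 second in both CHX groups, and CWP2 had the higher mean in both DMSO groups, although the replicate values of the 2 genes overlapped in upf1 with DMSO. TIP1 and CWP1 followed; their replicates overlapped in both DMSO groups, so their order there did not exceed the spread. These 4 genes lay between the 82.0th and the 98.8th percentile of protein-coding genes.

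TIR1 was in place 5 in all groups, and DAN1 was last in all groups, at the 1.1th to 6.0th percentile. TIR1 stood at the 17.5th percentile in upf1 with CHX, the 21.1th in upf1 with DMSO, the 44.4th in WT with CHX and the 65.9th in WT with DMSO. Between them, TIR3 was above TIR2, TIR4 and DAN4 in WT with DMSO. In upf1 with DMSO, TIR2 and TIR4 stood above TIR3, with TIR1 overlapping TIR2 and TIR2 overlapping TIR4. In upf1 with CHX, TIR4 overlapped TIR3 and TIR3 overlapped DAN4, and in WT with CHX no neighbours in the order overlapped.

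**Figure D1:**
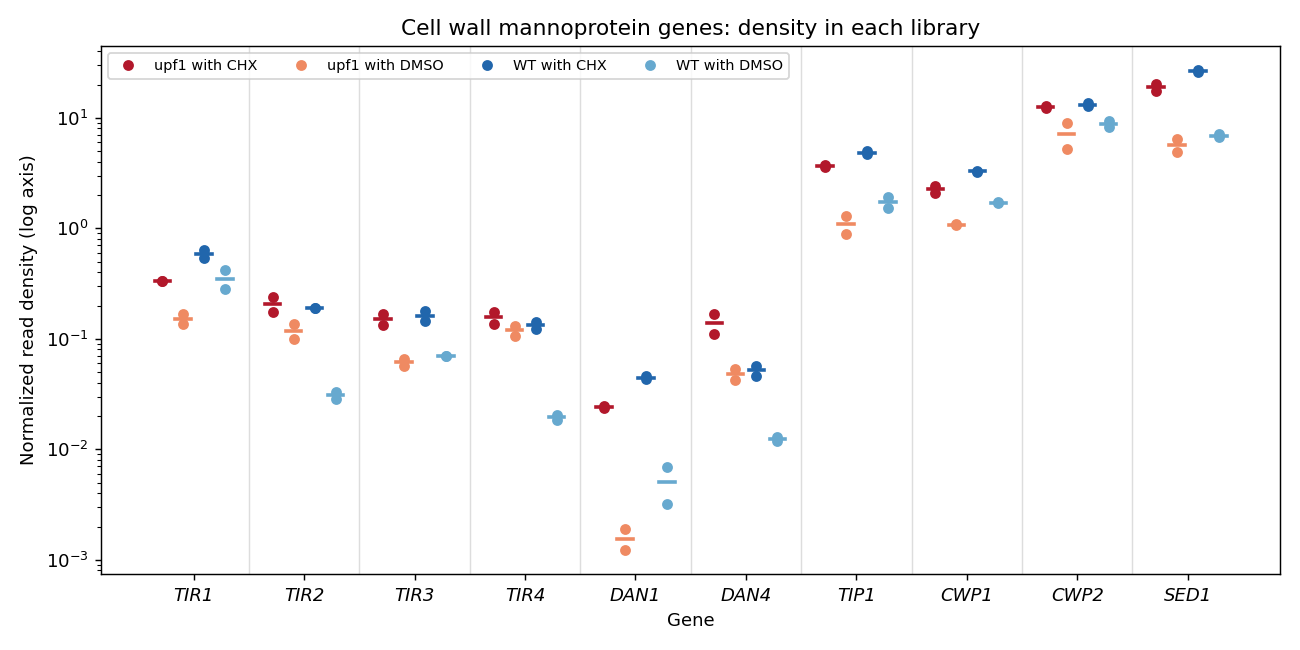
Normalized read density (log axis, no unit beyond the authors' scale) of the 10 genes, with each library as a point and each group mean as a bar. SED1, CWP2, TIP1 and CWP1 lie well above the TIR and DAN genes in every group, and TIR2, TIR4 and DAN4 are lowest in WT with DMSO.

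Loss of Upf1 went with lower values of 7 of the 10 genes in DMSO and higher values of TIR2, TIR4 and DAN4. Replicates of upf1 and WT did not overlap for 9 genes in DMSO, of which 6 were lower and 3 higher. Over all 11700 features tested, 3.03% were lower and 80.1% were higher by the same criterion. On mRNA-rescaled libraries all 10 genes were free of overlap, 7 lower and 3 higher, where 34.5% of features were lower and 41.2% higher. The median log2 change in DMSO was -0.33 over the 10 genes and 0.57 over protein-coding genes, or -1.02 and -0.11 on mRNA-rescaled libraries. Since the choice of genes used this contrast, nothing is read from these counts.

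TIP1, a major wall protein with reported esterase activity, had densities of 0.893 and 1.3 in upf1 with DMSO, against 1.54 and 1.9 in WT with DMSO. With CHX it had 3.77 and 3.58 in upf1, against 4.66 and 5.01 in WT. In both treatments every upf1 library lay below every WT library. The log2 change was -0.67 (SE 0.18) in DMSO and -0.40 (SE 0.18) with CHX, and on mRNA-rescaled libraries it was -1.37 and -0.78. CWP1, a wall protein of aerobic cells, had 1.06 and 1.09 in upf1 with DMSO, against 1.72 and 1.68 in WT with DMSO. With CHX the values of CWP1 were 2.1 and 2.39 in upf1, against 3.31 and 3.23 in WT. The upf1 libraries were again the lower ones in both treatments, with group means of 0.634 of WT in DMSO and 0.687 of WT with CHX. The log2 changes of CWP1 were -0.65 (SE 0.13) and -0.54 (SE 0.13), or -1.35 and -0.92 on mRNA-rescaled libraries.

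CWP2, the small wall protein encoded next to CWP1, had 5.2 and 8.99 in upf1 with DMSO, against 8.32 and 9.3 in WT with DMSO, and these groups overlapped. Its replicates in upf1 with DMSO were the most unequal of the aerobic wall genes, with a mean of 7.09 ± 2.68 (SD, n = 2). With CHX it had 12.2 and 12.7 in upf1, against 13.5 and 12.7 in WT. CWP2 was lower by a log2 change of -1.07 in DMSO and -0.45 with CHX on mRNA-rescaled libraries, without overlap, while the deposited scale gave -0.36 (SE 0.20) and -0.07 (SE 0.20). SED1 had 6.44 and 4.9 in upf1 with DMSO, against 7.08 and 6.67 in WT with DMSO. With CHX it had 20.4 and 17.4 in upf1, against 27.1 and 25.9 in WT. The upf1 libraries of SED1 were below the WT ones in both treatments, with log2 changes of -0.29 (SE 0.15) and -0.49 (SE 0.15), or -0.99 and -0.87 on mRNA-rescaled libraries.

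The 4 TIR genes did not move together. TIR1, which is needed for growth without oxygen, had 0.136 and 0.166 in upf1 with DMSO, against 0.282 and 0.416 in WT with DMSO. With CHX its values were 0.331 and 0.33 in upf1, against 0.536 and 0.64 in WT. All upf1 libraries of TIR1 were lower than the WT libraries of the same treatment. The log2 change of TIR1 was -1.16 (SE 0.20) in DMSO and -0.81 (SE 0.20) with CHX, and -1.86 and -1.18 on mRNA-rescaled libraries.

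TIR2, its closest relative here, had 0.1 and 0.137 in upf1 with DMSO, against 0.0332 and 0.0285 in WT with DMSO. TIR4, also needed for growth without oxygen, had 0.107 and 0.131 in upf1 with DMSO, against 0.0183 and 0.0205 in WT with DMSO. For both, the upf1 libraries were well above the WT libraries, by 3.85 times in mean density for TIR2 and 6.13 times for TIR4. The log2 changes were 1.76 (SE 0.21) for TIR2 and 2.32 (SE 0.19) for TIR4, or 1.16 and 1.78 on mRNA-rescaled libraries. With a pseudocount at the 25th percentile of values above 0 the change was 1.24 for TIR2 and 1.53 for TIR4. With CHX the groups overlapped for both genes. TIR2 then had 0.239 and 0.175 in upf1, against 0.189 and 0.191 in WT, and TIR4 had 0.175 and 0.137 in upf1, against 0.123 and 0.141 in WT. Their log2 changes with CHX were 0.11 and 0.23 on the deposited scale and -0.26 and -0.13 on mRNA-rescaled libraries.

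TIR3, the third TIR gene needed for growth without oxygen, had 0.0569 and 0.0654 in upf1 with DMSO, against 0.0704 and 0.0693 in WT with DMSO. With CHX the values of TIR3 were 0.166 and 0.133 in upf1, against 0.177 and 0.145 in WT, which overlapped. Its log2 change was -0.18 (SE 0.19) in DMSO and -0.10 (SE 0.19) with CHX, or -0.85 and -0.46 on mRNA-rescaled libraries.

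DAN1 and DAN4 parted in direction. DAN4 had 0.0427 and 0.0532 in upf1 with DMSO, against 0.012 and 0.013 in WT with DMSO. With CHX it had 0.11 and 0.167 in upf1, against 0.0465 and 0.0568 in WT. DAN4 was thus the one member above WT without overlap in both treatments, by log2 changes of 1.57 (SE 0.23) and 1.31 (SE 0.23), or 1.08 and 0.92 on mRNA-rescaled libraries. With the pseudocount at the 25th percentile its change in DMSO was 0.83.

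DAN1 rested on few reads, 2 and 2 in upf1 with DMSO, against 3 and 12 in WT with DMSO. With CHX it had 28 and 8 reads in upf1, against 27 and 27 in WT. The ratio of upf1 to WT from the pooled reads was 0.265 in DMSO (exact 95% interval 0.064 to 0.831) and 0.55 with CHX (0.351 to 0.854), intervals that cover counting error only. Its upf1 libraries were below the WT libraries in both treatments. The log2 changes of DAN1 were -0.56 and -0.75, or -1.05 and -0.99 on mRNA-rescaled libraries. At such low levels the size in DMSO depended on the setting, from -0.14 with a pseudocount at the 25th percentile of values above 0 to -1.60 with limma voom on recovered reads.

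With CHX, replicates of upf1 and WT were free of overlap for 6 genes, 5 lower (TIR1, DAN1, TIP1, CWP1 and SED1) and 1 higher (DAN4), where 11.1% of all features were lower and 52.6% higher. On mRNA-rescaled libraries 6 were lower, CWP2 added, and 1 was higher, where 41.2% of features were lower and 23.2% higher.

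**Figure D2:**
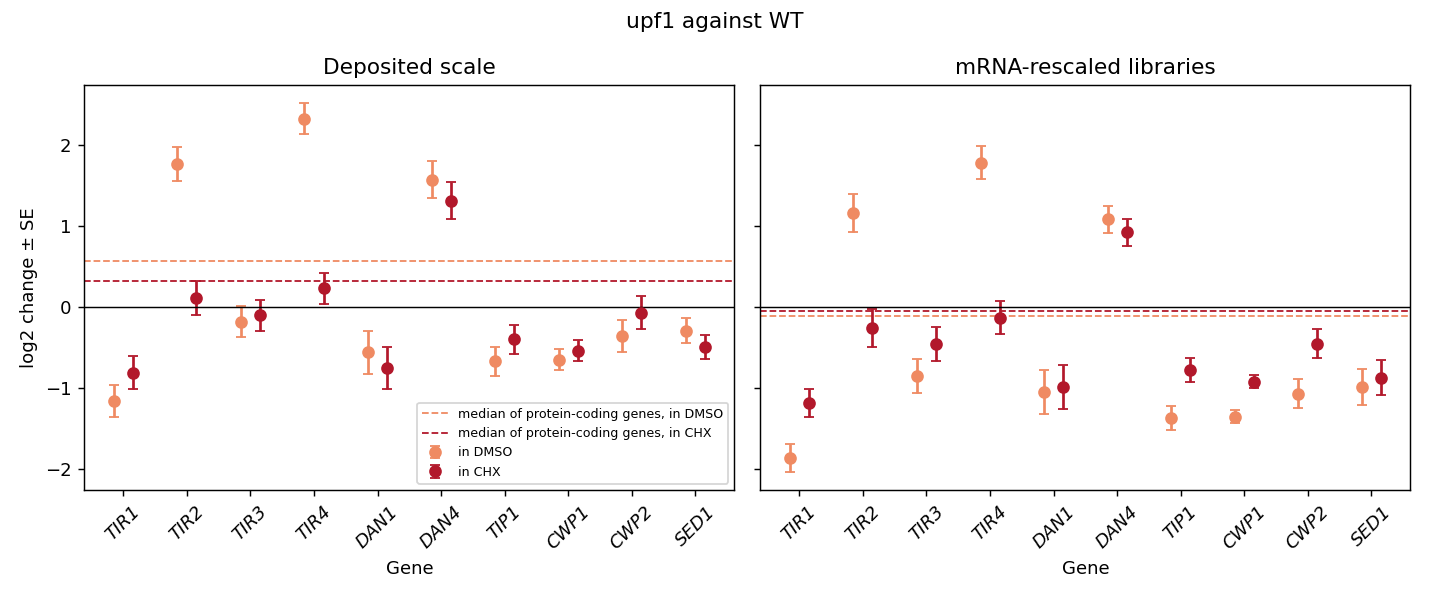
Log2 change of each gene in upf1 against WT (points, with SE as bars), in DMSO and in CHX, on the deposited scale and on mRNA-rescaled libraries, with dashed lines at the median of protein-coding genes. TIR2, TIR4 and DAN4 lie above the medians in DMSO, and DAN4 does so in CHX as well, while the other 7 genes lie below the medians on both scales.

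CHX raised all 10 genes in WT cells on the deposited scale, but so it did nearly everything else: 95.0% of features were higher and 0.0769% lower (limma, Benjamini-Hochberg adjusted p under 0.05). The median log2 change was 1.58 over the 10 genes and 1.55 over protein-coding genes. The choice of genes did not use this contrast, although it shares the WT DMSO libraries with the comparison of upf1 and WT. High values in those libraries favour both the choice of TIP1 and CWP1 and a smaller CHX change. The p-values of TIP1 and CWP1 in WT are therefore not independent of the choice. On mRNA-rescaled libraries TIR2, TIR4 and DAN1 were higher with CHX, TIR1, CWP1 and CWP2 were lower, and 4 did not pass, where 44.1% of features were higher and 18.9% lower. Directions for WT cells below are therefore given on both scales.

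TIR2, TIR4 and DAN1 were higher on both scales in WT. In WT, TIR2 had the densities given above, 0.189 and 0.191 with CHX against 0.0332 and 0.0285 with DMSO, and its log2 change was 2.43 (SE 0.21, limma adjusted p = 9.95e-07). Its mRNA-rescaled change was 1.02 (SE 0.23, limma adjusted p = 0.00551). TIR4 changed by 2.47 (SE 0.19, limma adjusted p = 6.41e-07), and by 1.12 (SE 0.20, limma adjusted p = 0.00175) on mRNA-rescaled libraries. CHX libraries of both genes lay above the DMSO libraries with no overlap. DAN1 had densities of 0.0458 and 0.0429 with CHX, against 0.00319 and 0.00691 with DMSO, also without overlap. Its log2 change was 2.26 (SE 0.26, limma adjusted p = 7.07e-06), or 1.26 (SE 0.27, limma adjusted p = 0.00476) on mRNA-rescaled libraries. The density ratio of DAN1 from pooled reads was 7.91 (exact 95% interval 4.4 to 15.1).

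TIR1, CWP1 and CWP2 turned in direction between the scales in WT. TIR1 had 0.536 and 0.64 with CHX, against 0.282 and 0.416 with DMSO. Its log2 change was 0.77 on the deposited scale (SE 0.20, limma adjusted p = 0.00334) and -0.76 on mRNA-rescaled libraries (SE 0.17, limma adjusted p = 0.00542). CWP1 changed by 0.94 (SE 0.13, limma adjusted p = 2.50e-05) and by -0.59 (SE 0.08, limma adjusted p = 6.80e-04) after mRNA rescaling. CWP2 changed by 0.57 (SE 0.20, limma adjusted p = 0.0187) and by -0.97 (SE 0.18, limma adjusted p = 0.00228) after mRNA rescaling. These 3 genes thus rose with CHX against snoRNAs and fell against the median mRNA. Without WT with DMSO replicate 1, the deposited-scale calls of TIR1 (0.49, limma adjusted p = 0.0597) and CWP2 (0.49, limma adjusted p = 0.077) were lost, and without WT with CHX replicate 1 that of CWP2 (0.53, limma adjusted p = 0.063).

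The remaining 4 genes passed in WT on the deposited scale alone. SED1 changed by 1.95 (SE 0.15, limma adjusted p = 5.14e-07) and by 0.41 after mRNA rescaling (SE 0.22, limma adjusted p = 0.139). DAN4 changed by 1.67 (limma adjusted p = 3.30e-05) and by 0.43 (limma adjusted p = 0.0524) on mRNA-rescaled libraries. TIP1 changed by 1.49 (limma adjusted p = 1.00e-05) and TIR3 by 1.14 (limma adjusted p = 1.13e-04), against -0.04 and -0.33 after mRNA rescaling.

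In upf1 cells, CHX raised 9 of the 10 genes on the deposited scale, where 89.0% of features were higher and 0.231% lower, and TIR4 did not pass. The median log2 change was 1.16 over the 10 genes and 1.14 over protein-coding genes. On mRNA-rescaled libraries DAN1 and TIP1 were higher, TIR4 was lower and 7 did not pass, where 16.1% of features were higher and 21.4% lower. The upf1 DMSO libraries used here also serve in the comparison of upf1 and WT. Low values in these libraries favour both the choice of TIP1 and CWP1 and a larger CHX change. The p-values of TIP1 and CWP1 in upf1 are therefore not independent of the choice.

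DAN1 had 0.0246 and 0.0236 with CHX in upf1, against 0.00122 and 0.00189 with DMSO, which did not overlap. Its log2 change was 2.07 (SE 0.26, limma adjusted p = 3.90e-05), or 1.33 (SE 0.27, limma adjusted p = 0.00701) on mRNA-rescaled libraries. The ratio of DAN1 from pooled reads was 16.4 (exact 95% interval 5.89 to 63.6), from 36 reads with CHX and 4 with DMSO. DAN1 was the one member higher on both scales in both strains.

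TIP1 changed by 1.76 in upf1 (SE 0.18, limma adjusted p = 1.15e-05), and by 0.55 on mRNA-rescaled libraries (SE 0.15, limma adjusted p = 0.0226). The mRNA-rescaled call of TIP1 was lost without upf1 with DMSO replicate 1 (0.38, limma adjusted p = 0.123) or upf1 with CHX replicate 1 (0.37, limma adjusted p = 0.115). SED1 changed by 1.74 (SE 0.15, limma adjusted p = 4.46e-06), against 0.53 (limma adjusted p = 0.0981) after mRNA rescaling. The mRNA-rescaled change of SED1 passed without upf1 with DMSO replicate 1 (0.83, limma adjusted p = 0.0273) or upf1 with CHX replicate 2 (0.79, limma adjusted p = 0.0445).

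TIR4 had 0.175 and 0.137 with CHX in upf1, against 0.107 and 0.131 with DMSO, which did not overlap but lay close together. Its log2 change of 0.38 (SE 0.19) did not pass (limma adjusted p = 0.0861), and on mRNA-rescaled libraries it was -0.78 (SE 0.20, limma adjusted p = 0.0163). On the deposited scale TIR4 passed without upf1 with CHX replicate 2 (0.55, limma adjusted p = 0.0384), and with limma voom on recovered reads (0.43, voom adjusted p = 0.0242). Its mRNA-rescaled call was lost without upf1 with DMSO replicate 1 (-0.83, limma adjusted p = 0.0563), upf1 with DMSO replicate 2 (-0.74, limma adjusted p = 0.0778) or upf1 with CHX replicate 2 (-0.48, limma adjusted p = 0.0709). TIR2 changed by 0.77 (SE 0.21, limma adjusted p = 0.00474), a call lost without upf1 with DMSO replicate 1 (0.56, limma adjusted p = 0.0525). After mRNA rescaling TIR2 stood at -0.40 (SE 0.23, limma adjusted p = 0.21), and at -0.75 without upf1 with CHX replicate 1 (limma adjusted p = 0.0258).

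The other 5 genes rose in upf1 on the deposited scale and did not pass after mRNA rescaling. Their log2 changes were 0.87 in CWP2 (limma adjusted p = 0.00213), 1.05 in CWP1, 1.11 in TIR1, 1.21 in TIR3 and 1.41 in DAN4. After mRNA rescaling the same genes stood at -0.35, -0.16, -0.07, 0.06 and 0.27, and CWP2 passed there, at -0.64, without upf1 with DMSO replicate 1 (limma adjusted p = 0.0127).

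**Figure D3:**
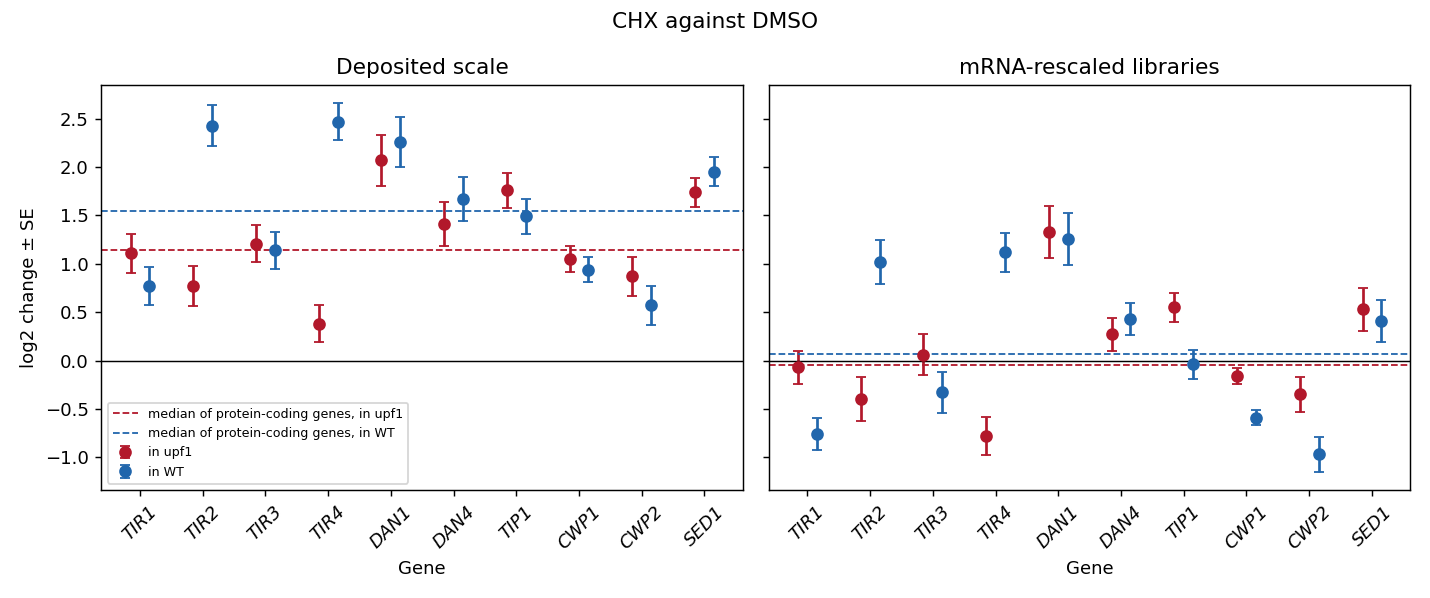
Log2 change of each gene with CHX against DMSO (points, with SE as bars) in upf1 and in WT, on the deposited scale and on mRNA-rescaled libraries, with dashed lines at the median of protein-coding genes. TIR2 and TIR4 show the widest gap between the strains, with the upf1 point below the WT point on both scales.

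The difference between the CHX responses of upf1 and WT was tested for the 8 genes other than TIP1 and CWP1, and it passed for TIR2 and TIR4. It is built from the same libraries as the comparison of upf1 and WT. Over all features 25.3% had a smaller CHX response in upf1 and 0.205% a larger one, so 2 of 8 is close to the share among all features and is no result about these genes as a group. On mRNA-rescaled libraries the same 2 genes passed, where 21.6% of features had a smaller response and 2.46% a larger one.

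The log2 difference of TIR4 was -2.09 (SE 0.27, limma adjusted p = 8.57e-04), and -1.91 on mRNA-rescaled libraries (SE 0.28, limma adjusted p = 0.003). The log2 difference of TIR2 was -1.65 (SE 0.29, limma adjusted p = 0.00266), and -1.42 on mRNA-rescaled libraries (SE 0.32, limma adjusted p = 0.0174). The mRNA-rescaled call of TIR2 was lost without WT with CHX replicate 1 (-1.38, limma adjusted p = 0.0634) or upf1 with DMSO replicate 2 (-1.30, limma adjusted p = 0.056). In both genes the group that stood apart was WT with DMSO, whose libraries were the lowest of the 8.

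The 6 genes that did not pass had differences of -0.25 to 0.35. TIR1 was at 0.35 (SE 0.28, limma adjusted p = 0.41) and at 0.68 after mRNA rescaling (SE 0.24, limma adjusted p = 0.0752), which passed without WT with DMSO replicate 1 (0.93, limma adjusted p = 0.0174). CWP2 was at 0.30 (SE 0.29, limma adjusted p = 0.491) and at 0.62 after mRNA rescaling (SE 0.25, limma adjusted p = 0.118). Without upf1 with DMSO replicate 2 the difference of CWP2 was 0.69, or 0.91 after mRNA rescaling. The values of TIP1 and CWP1, given with no test, were 0.27 (SE 0.25) and 0.11 (SE 0.18), or 0.59 and 0.43 on mRNA-rescaled libraries.

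Across the 8 mRNA-rescaled libraries the members fell into sets that varied together, given here as a description over libraries that share scaling and groups. TIR2 and TIR4 had a Pearson r of 0.94, and TIR1 and CWP1 one of 0.97. DAN4 ran opposite to CWP1 (r = -0.99), TIR1 (r = -0.96) and TIR3 (r = -0.93). Among chromosomal neighbours, DAN1 and DAN4 had r = -0.32, while CWP2 and CWP1 had r = 0.86 and TIR4 and TIR2 the r of 0.94 above. DAN1 rested on 2 to 28 reads a library, so its r is uncertain. The TIR2 and DAN4 features reach beyond their frames, and the part of this in the r of these neighbours was not tested. Among 2987 other protein-coding genes of at least median density, the pattern most like that of TIP1 was found in GNP1 (r = 0.992), an amino acid permease gene, SUN4 (r = 0.976), a wall protein gene, and PHO8 (r = 0.975), the vacuolar phosphatase gene. For CWP1 the most alike were EXG1 (r = 0.991), an exoglucanase gene, VTC1 (r = 0.989), a polyphosphate synthesis gene, and YGR054W (r = 0.987). EXG1 and SUN4 also stand in the list of glucan and chitin genes below.

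Other genes of the wall and of oxygen response were counted in lists. In upf1 against WT in DMSO, limma called 62.0% of all features higher and 0.889% lower, with a median log2 change of 0.64, and on mRNA-rescaled libraries 31.1% higher and 20.7% lower, with a median of 0.05. The list counts below stand beside these shares, with no test of a list. Of 25 other GPI-anchored or covalently bound wall proteins, 12 were higher, 2 lower and 11 did not pass in upf1 against WT in DMSO, with a median log2 change of 0.24 (62.0% of all features higher, 0.889% lower). On mRNA-rescaled libraries 9 were higher, 12 lower and 4 did not pass, with a median of -0.45 (31.1% of all features higher, 20.7% lower). PIR3, a wall protein with internal repeats, changed by 2.80 (SE 0.15, limma adjusted p = 4.40e-07) and by 2.21 after mRNA rescaling. FIT2, a mannoprotein of iron uptake, and CCW14, an inner wall glycoprotein, were lower, at -0.56 (limma adjusted p = 0.0165) and -0.42 (limma adjusted p = 0.041), or -1.25 and -1.12 after mRNA rescaling.

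Enzymes that build the wall and attach these proteins, and wall signalling, were counted next, against the same 62.0% of features higher and 0.889% lower, or 31.1% and 20.7% after mRNA rescaling. Of 20 glucan and chitin genes 5 were higher and 0 lower in upf1 with DMSO, or 1 higher and 17 lower after mRNA rescaling. GSC2, a glucan synthase subunit, was the highest at 1.58 (limma adjusted p = 6.91e-06), or 0.90 after mRNA rescaling. Of 15 genes of GPI anchor synthesis, transfer and wall attachment 10 were higher and 0 lower, or 3 higher and 8 lower after mRNA rescaling. SPT14, whose product takes part in the first step of GPI synthesis, was the highest at 1.59 (limma adjusted p = 1.27e-05), or 0.92 after mRNA rescaling. Of 19 mannosylation genes 8 were higher and 0 lower, or 1 higher and 17 lower after mRNA rescaling, with the mannosyltransferase gene PMT6 highest at 0.99, or 0.29. Of 15 genes of the cell wall integrity pathway 7 were higher and 0 lower, or 1 higher and 7 lower after mRNA rescaling, with the wall sensor gene WSC3 highest at 0.99, or 0.31. In these 4 lists the median change was 0.24 to 0.44, and -0.46 to -0.25 after mRNA rescaling.

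Of 8 regulators of TIR and DAN genes, 2 were higher and 0 lower in upf1 with DMSO, with a median of 0.33, where 62.0% of all features were higher and 0.889% lower. After mRNA rescaling 0 were higher and 6 lower, with a median of -0.35, where 31.1% of features were higher and 20.7% lower. MOT3 and ECM22 were the higher ones, at 0.54 (limma adjusted p = 0.0217) and 0.53 (limma adjusted p = 0.0407), and neither passed after mRNA rescaling (-0.13 and -0.15). UPC2, the activator that binds AR1, stood at 0.33 (SE 0.19, limma adjusted p = 0.146), and at -0.35 after mRNA rescaling (SE 0.10, limma adjusted p = 0.0179). ROX1, a repressor of genes of low oxygen, stood at 0.35 (SE 0.17, limma adjusted p = 0.101), and at -0.32 (SE 0.10, limma adjusted p = 0.0278) after mRNA rescaling. With CHX in WT all 8 were higher, as were 95.0% of all features. ROX1 stood at 2.91 (limma adjusted p = 2.21e-07) and UPC2 at 1.87 (limma adjusted p = 2.67e-06). Both stayed higher after mRNA rescaling, at 1.42 and 0.38, where 44.1% of all features were higher and 18.9% lower.

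Of 17 other genes raised without oxygen, 16 were tested, and in upf1 with DMSO 12 were higher and 0 lower, with a median of 1.18, where 62.0% of all features were higher and 0.889% lower. After mRNA rescaling 5 were higher, 5 lower and 6 did not pass, with a median of 0.66, where 31.1% of features were higher and 20.7% lower. The highest were the seripauperin genes PAU7 at 3.61 (limma adjusted p = 1.39e-06) and PAU5 at 2.66 (limma adjusted p = 1.04e-06), or 2.98 and 2.37 after mRNA rescaling. PAU genes form a family of near-identical copies, and their reads can be split in counting. PAU23 and PAU24 stand both in this list and in that of the other wall proteins, and are counted in each. ANB1, a translation factor gene, and HEM13, a haem synthesis gene, both known to rise without oxygen, stood at -0.38 (limma adjusted p = 0.103) and -0.27 (limma adjusted p = 0.123), or -1.07 and -0.97 after mRNA rescaling.

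In WT with CHX, every tested gene of these lists was higher on the deposited scale, among 95.0% of all features. After mRNA rescaling 44.1% of all features were higher and 18.9% lower, and the counts in WT were 11 higher and 5 lower of 25 other wall proteins, 2 and 13 of 20 glucan and chitin genes, 3 and 10 of 15 GPI genes, 0 and 16 of 19 mannosylation genes, 6 and 3 of 15 integrity genes, 3 and 1 of 8 regulators, and 9 and 3 of 16 genes raised without oxygen. PIR3 (2.29) and PST1 (1.38), a wall protein gene of the integrity response, were the highest wall genes after mRNA rescaling, and CCW12, a major mannoprotein gene, stood at -1.12.

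**Figure D4:**
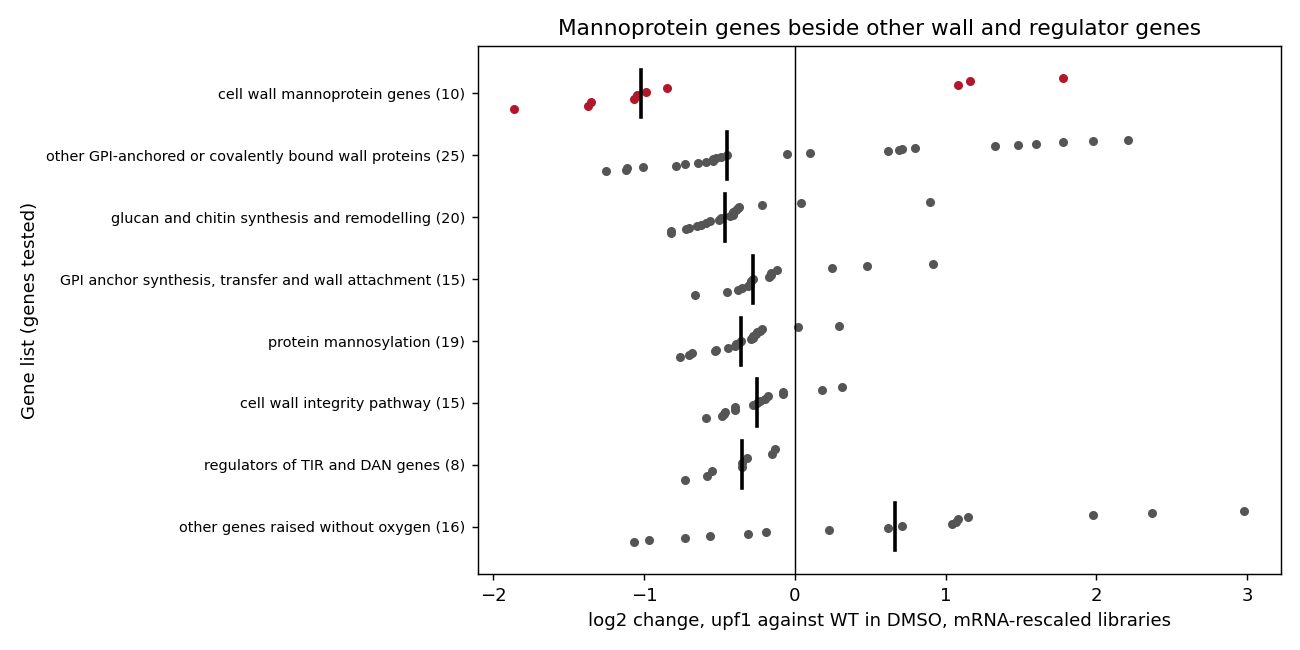
Log2 change in upf1 against WT in DMSO on mRNA-rescaled libraries for each tested gene of 8 sets (points), with the median of each set as a black bar. The 10 mannoprotein genes split into 7 at or below -0.85 and 3 at or above 1.08. Over all features, groups did not overlap for 34.5% that were lower and 41.2% that were higher. The choice of the 10 genes used this contrast, unlike a comparison free of selection, so nothing is read from their place beside the lists.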

How the data were processed

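RNA from 8 libraries was analysed from the deposited table of normalized densities, a signal per feature and library that the authors made. The tools named in the submitters' processing notes are HISAT2 2.2.0, Trim Galore, DESeq2 and featureCounts 2.0.0, and the build is R64. Not given in the sources used here are the annotation and how reads with several matches were handled. Per the labels' protocols, an external RNA standard was added before rRNA depletion; it was not used here. Groups came from the sample titles. Densities above 0 were whole reads at a single length for all 11986 such features (100%, tolerance 0.001 reads), which gave reads, lengths and depth.

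The 10 genes and all lists were chosen with earlier results of these data known. log2(density + 0.005488), the 5th percentile of values above 0, was fitted with limma 3.58.1 (R 4.3.3), with 4 group means over 8 libraries, a mean-variance trend and Benjamini-Hochberg adjustment over 11700 features with a mean density at or above the pseudocount (threshold 0.05). Adding the pseudocount understates changes of low genes. The fit was checked on simulated data in which few features changed, unlike the CHX effect here, so that check covers the working of the fit only. mRNA-rescaled libraries used the median of ratios over 5817 genes. Named genes were all members, at most the 2 highest and 2 lowest of a list, UPC2, ROX1, MOT3 and NAM7. Also named were the 3 genes most correlated with TIP1 and with CWP1, and PAU23 and PAU24 as genes of 2 lists. Alternatives were other pseudocounts, no filter, mRNA rescaling, voom on recovered reads, a replicate block and leaving out each library.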

Additional observations from a re-analysis of the deposited data

Results flagged for a closer look

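The CHX response of TIR4 differed between the strains, with a log2 difference of -2.09 for upf1 minus WT (limma adjusted p = 8.57e-04). The CHX response of TIR2 differed as well, by -1.65 (limma adjusted p = 0.00266). Both were picked out because the difference of the responses itself passed the test. A smaller response in upf1 was seen in 25.3% of all features. Seen by strain, upf1 against WT stood at 2.32 for TIR4 and 1.76 for TIR2 in DMSO, against 0.23 and 0.11 with CHX. Seen by treatment, CHX against DMSO stood at 2.47 for TIR4 and 2.43 for TIR2 in WT, against 0.38 and 0.77 in upf1. The choice of genes used the change without Upf1, so these p-values are not independent of the choice. The TIR2 feature reached 1144 bases beyond the reading frame, and the part of this in the result was not tested.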

How the results depend on the processing

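Each of 50 member changes (10 genes in 5 comparisons) held if it kept its direction and side of the threshold. An untested value held if it kept its direction and shifted by less than its SE in the main fit. All 50 held with no filter, 48 and 43 with pseudocounts at the 1st and 25th percentile, 45 with voom and 12 with mRNA rescaling. With the replicate block all 50 held and the counts stayed at 10, 9 and 2. The log2 difference of replicate 1 minus replicate 2 in each group was correlated between groups over features. The r was -0.024 to 0.076, so the replicate numbers did not pair libraries across groups. mRNA rescaling gave 3 higher and 3 lower with CHX in WT, 2 higher and 1 lower with CHX in upf1, and 1 gene above 0 in upf1 against WT with CHX. It reversed CHX changes in WT for TIR1 (-0.76), TIR3 (-0.33), TIP1 (-0.04), CWP1 (-0.59) and CWP2 (-0.97), and in upf1 for TIR1 (-0.07), TIR2 (-0.40), TIR4 (-0.78), CWP1 (-0.16) and CWP2 (-0.35). It also reversed upf1 against WT with CHX for TIR2 (-0.26) and TIR4 (-0.13), and the response difference for DAN1 (0.06) and SED1 (0.12). The response difference of DAN1 reversed with the 1st percentile (0.15) and voom (0.75), and that of DAN4 with the 25th (0.17). The cause was not tested.

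Leaving out 1 library gave 8 to 10 members higher and 0 to 0 lower with CHX in WT and likewise in upf1, and 0 to 1 larger and 2 to 2 smaller response differences. By sign, upf1 against WT gave 3 to 4 higher and 6 to 7 lower in DMSO, and 2 to 4 higher and 6 to 8 lower with CHX. Directions turned in the response differences of TIR3 (-0.08 to 0.23), DAN1 (-0.45 to 0.07), DAN4 (-0.54 to 0.03) and CWP2 (-0.10 to 0.69), and in upf1 against WT for CWP2 in DMSO (-0.76 to 0.03) and for TIR2 (-0.11 to 0.32) and TIR3 (-0.26 to 0.05) with CHX. Leaving out libraries after mRNA rescaling, an alternative chosen after seeing the data, gave 3 to 3 higher and 3 to 3 lower with CHX in WT, 1 to 3 higher and 0 to 2 lower in upf1, and 0 to 1 larger and 1 to 2 smaller response differences. By sign it gave 3 to 3 higher and 7 to 7 lower for upf1 against WT in DMSO, and 1 to 3 higher and 7 to 9 lower with CHX. There, directions turned for CHX in WT in TIP1 (-0.16 to 0.07), CHX in upf1 in TIR1 (-0.22 to 0.07) and TIR3 (-0.22 to 0.35), upf1 against WT with CHX in TIR2 (-0.61 to 0.10) and TIR4 (-0.44 to 0.17), and the response difference in DAN1 (-0.27 to 0.40) and SED1 (-0.18 to 0.42). A lone replicate was assumed to vary like the other groups. DAN1, at 2 to 28 reads a library, was the member limited by depth.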
